A study of Mus musculus with 6 samples.

Results

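The genes described here are 33 mouse genes of the machinery that moves secretory granules and other vesicles to the plasma membrane and fuses them with it. They were taken as a named list of SNARE, Munc18, Munc13, Rab, synaptotagmin-like (Slp) and exocyst genes and were matched by symbol among the 41388 genes counted. The list was matched in full, and all 33 members had enough counts to be tested. No expression value was used to choose them, although earlier results from the same libraries were known when the list was drawn up.

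Neutrophils were isolated from the bone marrow of C57BL/6 mice for RNA sequencing. The cells carried 250 nM of DiBAC4(3), an anionic dye whose fluorescence goes up on entry into a depolarized cell, and every cell had received 100 nM ionomycin, an ionophore that raises cytosolic calcium. Between 2 and 4 minutes after stimulation, 20000 cells that had depolarized and 20000 that had stayed polarized were sorted into lysis buffer. Each group has 3 libraries, which form 3 biological replicate pairs by the code in their titles, named A, B and C here in the order of that code. No unstimulated library was analysed here, so a difference is one between 2 sorted populations of stimulated cells and not a response to ionomycin. The run label in the titles reads 1 in the depolarized library of pair B and 2 in the other libraries. What it stands for is not stated.

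Membrane fusion is driven by SNARE proteins. A VAMP (R-SNARE) on the vesicle pairs with a syntaxin and a SNAP-25 type protein on the target membrane. Munc18 proteins hold and guide the syntaxin, Munc13 proteins prime the vesicle, Rab GTPases and their effectors bring it to its place, the exocyst tethers it, and NSF with α-SNAP takes spent SNARE complexes apart for reuse. Neutrophils store proteases, antimicrobial proteins and membrane receptors in several kinds of granules that differ in how readily calcium releases them. Rab27a and Munc13-4 are known from work on granule release in blood cells.

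The libraries held 16904969 to 20381489 counts and 15527 to 16005 genes with at least 1 count. All 12 neutrophil markers listed were over 3 counts in the 6 libraries together and summed to 194740 to 239405 counts per 1000000 counts (CPM) in polarized and 166958 to 190348 CPM in depolarized libraries. These sums did not overlap between the groups, and 2 of the 12 genes were called lower in depolarized cells. Of 8 genes of early neutrophils such as Mpo and Elane, 7 were called lower in depolarized cells. In order of pair, their sum was 55.1, 97.1 and 345 CPM in polarized and 10.99, 8.34 and 24.7 CPM in depolarized cells. Polarized C lay farther from the other polarized libraries than these from each other: chi-square per degree of freedom over the counts was 96.1 and 100 against A and B, and 33.6 between A and B. Eosinophil markers summed to 51.0 to 473 CPM in polarized and 58.5 to 197 CPM in depolarized cells, and monocyte markers to 896 to 1173 and 817 to 903 CPM. The part of such cells in the values below was not tested. The TMM scaling factor, which rescales library totals so that most genes match between libraries, was 0.876 in polarized C and 0.967 to 1.08 in the other libraries. In bulk RNA of this kind, fewer cells of a type and less RNA per cell cannot be told apart.

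The machinery was expressed at widely different levels. The highest was Snap23, the SNAP-25 type protein of the plasma membrane outside the nervous system, at 263 ± 43.6 RPKM (CPM per kilobase of gene length, SD, n = 6 libraries). Next came Vamp8, an R-SNARE of endosomes and of granules in blood cells, at 238 ± 15.9 RPKM. The following 4 places were taken by Rab GTPases: Rab8a at 116 ± 14.7 RPKM, Rab27a at 109 ± 16.3, Rab7 at 103 ± 3.28 and Rab3d at 86.9 ± 11.5. The 4 most abundant members together held 52.4% of the RPKM of the 33 genes.

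Mean RPKM was above 10 for 18 members and below 1 for 3, namely Sytl3, Exoc4 and Stx3. The member median was 10.8 RPKM, beside 2.62 RPKM for all tested genes and 5.58 RPKM for the 65 tested genes of a second list that covers other parts of the same machinery. Among the 21979 genes with at least 1 count, 15 members were in the top 10% by RPKM and 32 were above the median. The list was drawn up with earlier results of these libraries known, and paralogs with few or no counts stand in the second list. The higher levels of the members therefore describe the list as chosen and were not tested. The order of the levels was mostly loose: of the 32 neighbouring places in the order of mean RPKM, 4 held in all 6 libraries. Those were Vamp8 above Rab8a, Rab11a above Vamp4, Vamp2 above Sytl1 and Sytl1 above Sytl3. Snap23 was above Vamp8 in 5 of 6 libraries, the exception being the polarized library of pair B with 184 and 227 RPKM.

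**Figure D1:**
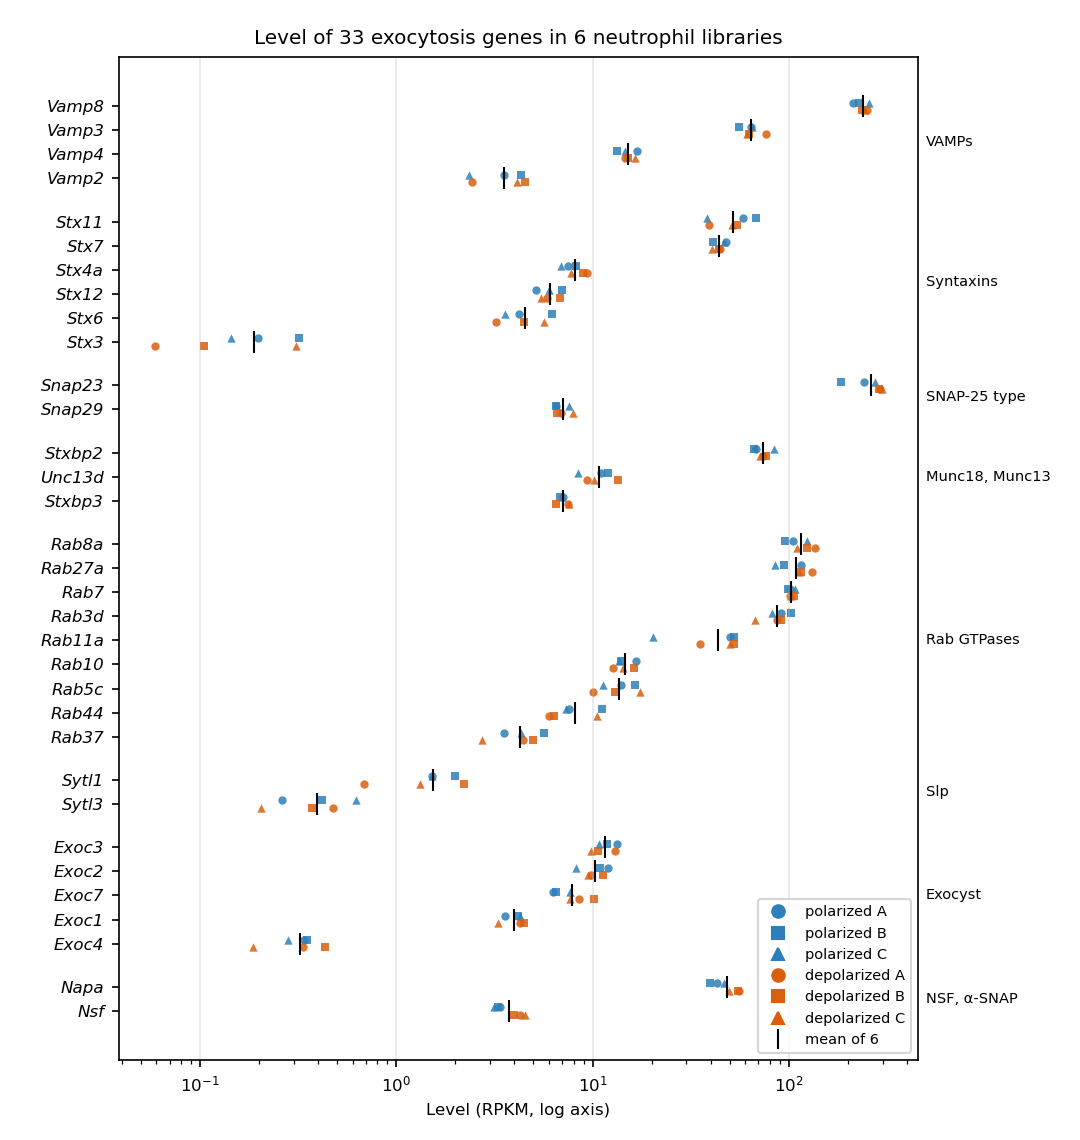
Level of each of the 33 genes in RPKM on a log axis, grouped by role. Blue points are polarized and orange points depolarized libraries, the shape gives the pair, and the black bar is the mean of the 6 libraries. Snap23 and Vamp8 lie at the right, Stx3, Exoc4 and Sytl3 lie below 1 RPKM, and the 2 colours overlap for most genes.

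The start regions of the 2 most abundant members are shown because these genes are neighbours in level and differ in their content of CG pairs, the dinucleotide that marks CpG-island promoters. The windows run from 250 bases before to 50 bases after the transcript start in RefSeq (build GRCm38.p6), and every CG pair is in capitals. The Snap23 window is chr2:120567421-120567720 on the plus strand and the Vamp8 window is chr6:72390618-72390917 on the minus strand, each read in the direction of transcription.
Snap23: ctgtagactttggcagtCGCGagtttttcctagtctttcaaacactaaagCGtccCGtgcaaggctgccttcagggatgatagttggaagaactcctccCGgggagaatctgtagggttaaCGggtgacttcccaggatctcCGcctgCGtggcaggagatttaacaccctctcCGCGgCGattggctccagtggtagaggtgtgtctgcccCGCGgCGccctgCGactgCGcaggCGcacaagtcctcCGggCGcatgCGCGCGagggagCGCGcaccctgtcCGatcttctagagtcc
Vamp8: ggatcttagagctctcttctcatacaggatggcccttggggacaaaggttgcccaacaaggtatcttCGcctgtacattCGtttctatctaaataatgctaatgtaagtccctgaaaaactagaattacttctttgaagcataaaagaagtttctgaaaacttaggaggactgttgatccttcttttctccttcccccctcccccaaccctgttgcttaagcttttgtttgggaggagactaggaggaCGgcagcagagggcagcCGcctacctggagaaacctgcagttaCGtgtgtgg
The Snap23 window holds 25 CG pairs and the Vamp8 window holds 5. CG reads the same on both strands, so a pair was counted once. RefSeq windows of this kind were matched for 28 of the 33 members, with a median of 22.5 CG pairs in the first window of each gene. The median was 21.0 over the 7471 tested genes with a window and 7 over the windows of all 27025 genes. At least 10 CG pairs were found in 82.1% of member windows, in 82.4% of windows of tested genes and in 43.9% of all windows. The first window is the one listed first for a gene, and some genes have more. The lowest count in a member's first window, 5, was shared by Vamp8 and by the Slp genes Sytl1 and Sytl3. A further window of Exoc2 held 0. Vamp8 stood at 238 RPKM, Sytl1 at 1.54 and Sytl3 at 0.39.

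Counting the exocyst as a family, a single paralog in 7 of 14 families carried 90.6% or more of the RPKM. Snap23 held 97.03% ± 0.48 (SD, n = 6) of the SNAP-25 type genes, with Snap29, which acts in autophagosome fusion, next at 2.65% and the neuronal Snap25 at 1 count in all libraries together. Stxbp2 (Munc18-2, the partner of syntaxins 3 and 11) held 91.2% ± 0.87 of the Munc18 genes, and Stxbp3 (Munc18c, the partner of syntaxin 4) held 8.82%. Unc13d (Munc13-4) held 99.3% ± 0.33 of the Munc13 genes. Rab27a was counted 47623 times and Rab27b not once. Rab3d held 99.8% of the Rab3 genes, and Rab37 held 99.8% beside Rab26. Napa (α-SNAP) held 90.6% ± 1.202 beside Napg and Napb.

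Other families were shared between paralogs. Vamp8 held 67.3% ± 1.74 of the 6 VAMP genes listed, and Vamp3 (cellubrevin, of recycling endosomes) held 18.2%. Vamp7 was not on that list, so the shares are of these 6 genes only. Among the 15 syntaxins listed, Stx11, the syntaxin of cytotoxic granule release, held 32.3% ± 4.74 and Stx7, of late endosomes, held 28.0%, and Stx11 was the higher of the pair in 4 of 6 libraries. Rab11a held 69.2% ± 8.60 and Rab11b 30.8% ± 8.60. For Rab8a the share was 56.4% ± 5.90, with Rab8b at 43.6% and Rab8a higher in 5 of 6 libraries.

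In 2 families the leading gene was not among the 33. Rab5b held 70.2% ± 6.47 of the Rab5 genes, and the member Rab5c, a Rab of early endosomes, held 23.5% ± 5.12. Exoc6 held 31.3% ± 2.08 of the RPKM of 9 exocyst genes, and the member Exoc3 was next with 20.6%. Among the Slp genes, which link Rab27 to other proteins, Sytl1 held 78.3% ± 11.1 and Sytl3 21.7%, and the other 3 genes of the family had no count. By group, the share of Vamp8 was 67.4% ± 2.58 in polarized and 67.3% ± 0.93 in depolarized libraries, and that of Snap23 was 96.7% ± 0.45 and 97.4% ± 0.24 (SD, n = 3 each).

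**Figure D2:**
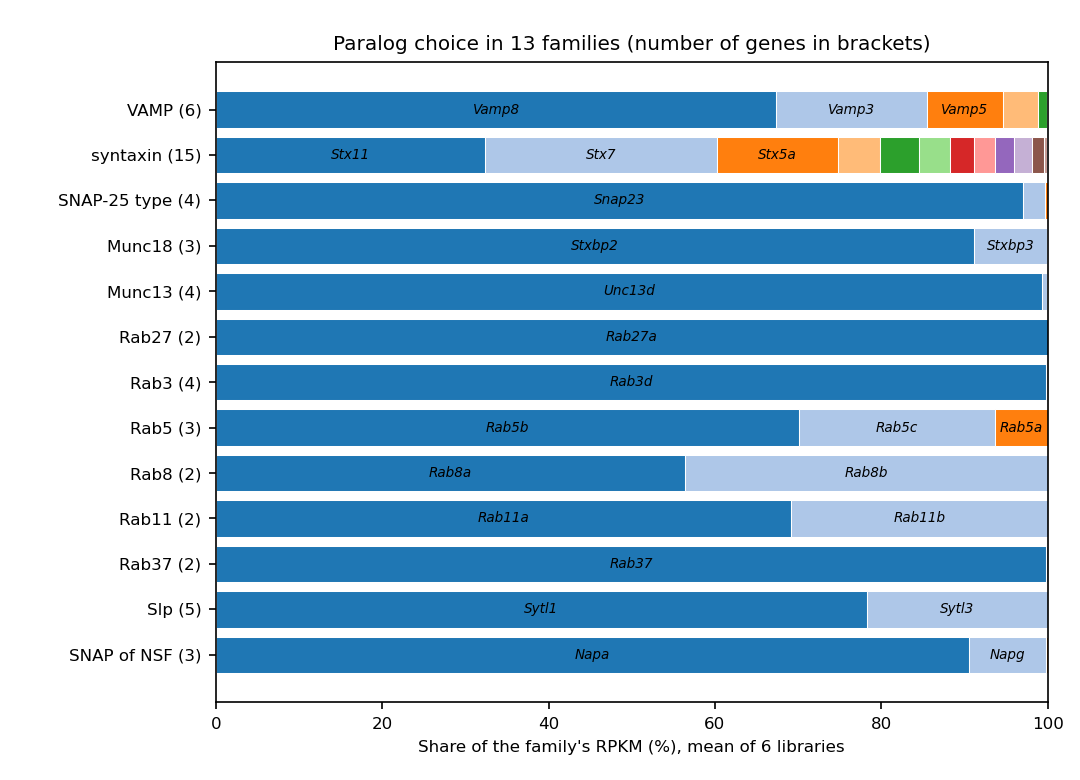
Share of each gene in the summed RPKM of its family, as the mean of 6 libraries, for 13 families with the number of genes in brackets. Each bar adds to 100%, colours separate genes within a bar, and the genes above 6% are named. Snap23, Stxbp2, Unc13d, Rab27a, Rab3d, Rab37 and Napa fill most of their bars, while the VAMP, syntaxin, Rab5, Rab8 and Rab11 bars are divided.

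No member of the 33 passed the test for a difference between depolarized and polarized cells. With edgeR's quasi-likelihood test, the pair as a block and Benjamini-Hochberg adjustment over all 9971 tested genes, 0 members were called higher and 0 lower at an adjusted p under 0.05. Over all tested genes 0.0802% were called higher and 0.241% lower, 0.321% in all. At an unadjusted p under 0.05 there were also 0 members, beside 6.58% of all tested genes, and DESeq2 with the same block likewise called 0 members (0.391% of all tested genes) and gave 0 at an unadjusted p under 0.05 (5.16% of all). The lowest adjusted p of a member in the edgeR test was 0.921, for Nsf. The p-values rest on the spread among these 3 pairs, pooled in part across genes by both tools, and not on each gene's own spread alone.

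The fitted log2 differences, depolarized minus polarized, ran from -0.74 for Stx3 to 0.31 for Nsf. They were above 0 for 12 members (36.4%) and below 0 for 21, while 49.6% of all tested genes were above 0. The median was -0.06 beside -0.002 over all tested genes. Its sign depended on the fit: it was 0.011 with library totals only and 0.060 without pair C. Over all tested genes the median was 0.065 and -0.005 in these fits. With library totals only both medians moved up, and that of the members stayed the lower. For 30 of the 33 members the 95% interval of the difference stayed within 1 log2 unit, that is within 2-fold, either way. The same held for 6650 of the 9971 tested genes. The exceptions among the members were Stx3, Sytl1 and Sytl3, with 102, 432 and 194 counts in the 6 libraries together. A difference smaller than these intervals was not detectable with 3 pairs.

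**Figure D3:**
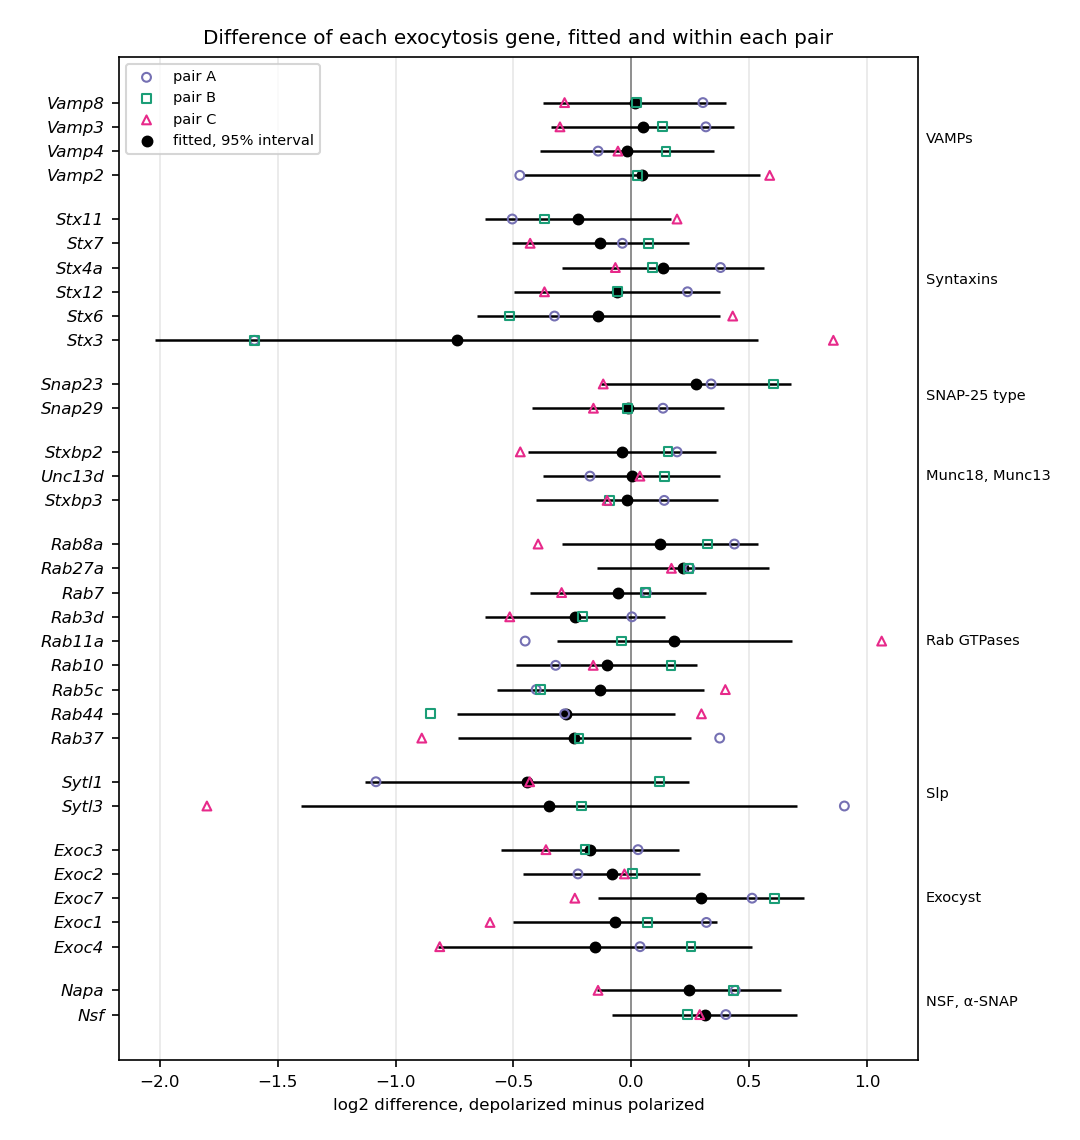
Difference of each gene as log2 of depolarized over polarized, grouped by role. Black points and lines are the fitted value with its 95% interval from edgeR, and open symbols are the TMM-scaled differences within pairs A, B and C. All 33 intervals include 0, and the symbol of pair C often lies on the other side of 0 from those of A and B.

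**Figure D4:**
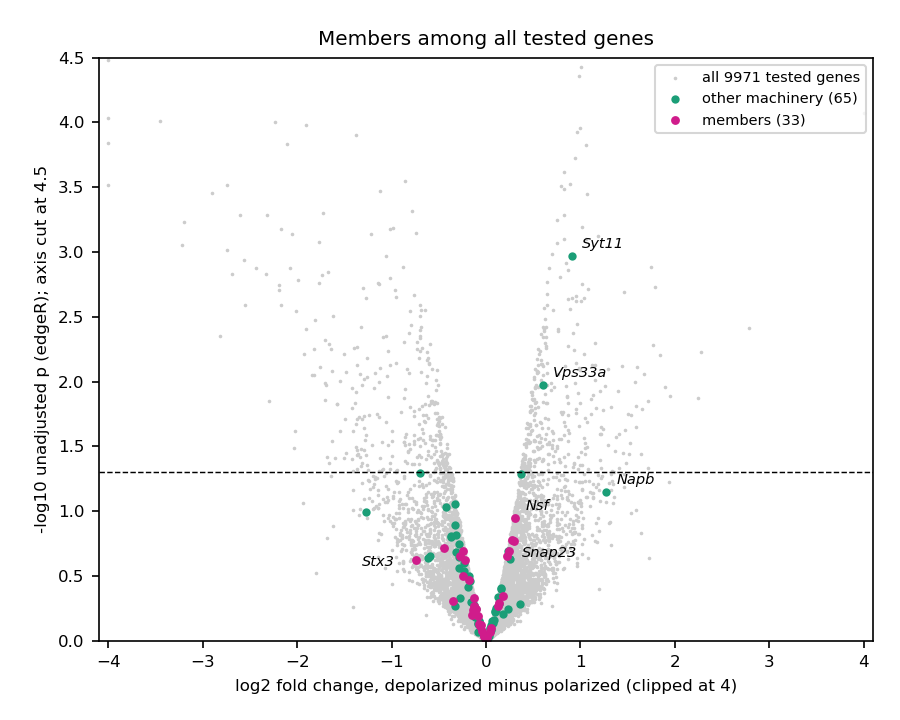
Fitted log2 fold change (depolarized minus polarized, clipped at 4) against -log10 of the unadjusted edgeR p (axis ends at 4.5) for the 9971 tested genes, with the 33 members and the 65 tested genes of the second machinery list coloured. The dashed line marks an unadjusted p of 0.05. No member lies above it, and Syt11 and Vps33a of the second list do.

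Among the vesicle SNAREs, Vamp8 had 491, 525 and 588 CPM in polarized and 580, 548 and 566 CPM in depolarized cells of pairs A, B and C. The groups overlapped, and the depolarized value was the higher in pairs A and B only. The fitted log2 difference was 0.01 (95% interval -0.37 to 0.40). Vamp3, at 161 to 187 CPM in polarized and 177 to 221 CPM in depolarized libraries, had a difference of 0.05 (SE 0.18). Vamp4, which works at the trans-Golgi, had one of -0.02 (SE 0.17), and Vamp2, the synaptobrevin of neurons and secretory granules, 0.05 (SE 0.24). With library totals in place of TMM factors the sign for Vamp4 turned.

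Of the syntaxins, Stx11 had 140, 164 and 91.9 CPM in polarized and 94.2, 130 and 123 CPM in depolarized cells of pairs A, B and C. The groups overlapped: the depolarized value was lower in pairs A and B and higher in pair C. Its fitted log2 difference was -0.23 (SE 0.19). Stx7 differed by -0.13 (SE 0.18), and Stx12 (syntaxin 13, of recycling endosomes) by -0.06 (SE 0.21), a sign that turned with library totals only. Stx6, of the trans-Golgi, had a difference of -0.14 (SE 0.24).

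Stx4a (syntaxin 4) and Stx3 are syntaxins of the plasma membrane. Stx4a had 17.7, 19.4 and 16.4 CPM in polarized and 22.03, 21.2 and 18.3 CPM in depolarized cells of pairs A, B and C. By CPM the depolarized value was the higher in each pair, although the groups overlapped. Its difference was 0.14 (SE 0.20), and without pair C it was not called either. Stx3 had the lowest level of all members, at 0.19 RPKM. It had 0.98, 1.58 and 0.71 CPM in polarized and 0.29, 0.52 and 1.54 CPM in depolarized libraries, so the depolarized values included both the lowest and nearly the highest. The difference of -0.74 had a 95% interval from -2.02 to 0.54. It was -0.34 without pair A, -0.27 without pair B and -1.64 without pair C, and was called in none of these.

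Snap23 (chr2:120567671-120601255, plus strand, GRCm38) had 1038, 789 and 1183 CPM in polarized and 1256, 1233 and 1275 CPM in depolarized cells of pairs A, B and C. All 3 depolarized values were above all 3 polarized ones, and they lay close together (1255 ± 21.4 CPM beside 1004 ± 199, SD, n = 3 each). The fitted log2 difference was 0.27 (SE 0.19, 95% interval -0.13 to 0.68, adjusted p = 0.973 by edgeR's quasi-likelihood test). With TMM scaling, pair C turned to a difference of -0.12 and the groups overlapped. Snap29 had 22.4 to 26.2 CPM in polarized and 22.7 to 27.4 CPM in depolarized cells. Its difference was -0.01 (SE 0.19), or 0.05 with library totals only.

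Groups without overlap in CPM were found for 3 members, Snap23, Nsf and Napa, each higher in depolarized cells, and for 0 members in the other direction. Over all tested genes 10.4% had groups apart, 7.28% with depolarized and 3.14% with polarized libraries on the higher side. On TMM-scaled CPM the count was 1 member, Nsf, on the higher side, beside 9.13% of all tested genes in either direction, 4.58% on the higher and 4.54% on the lower side. The summed CPM of the 33 members was 4750, 4449 and 4833 in polarized and 5233, 5195 and 4974 in depolarized libraries (pairs A, B and C), and the groups did not overlap. Without Snap23 the sums were 3712, 3660 and 3650 beside 3977, 3963 and 3698, which overlapped. On the TMM scale the sums of all 33 overlapped too, with 5514 in the polarized library of pair C as the highest value.

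Nsf (chr11:103821782-103954056, minus strand), the ATPase that takes SNARE complexes apart, had 28.1, 27.5 and 26.4 CPM in polarized and 35.5, 33.4 and 37.7 CPM in depolarized cells of pairs A, B and C. Every depolarized value was above every polarized one, and the difference had the same sign in all 3 pairs on either scale. The fitted log2 difference was 0.31 (SE 0.19, 95% interval -0.08 to 0.70). By edgeR's quasi-likelihood test the unadjusted p was 0.113 and the adjusted p 0.921. Its cofactor Napa (chr7:16098458-16117975, plus strand) had 163, 150 and 177 CPM in polarized and 212, 208 and 188 CPM in depolarized cells. The groups were apart in CPM, while with TMM scaling the polarized library of pair C, at 202, was above 2 of the depolarized ones. The difference was 0.24 (SE 0.18).

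**Figure D5:**
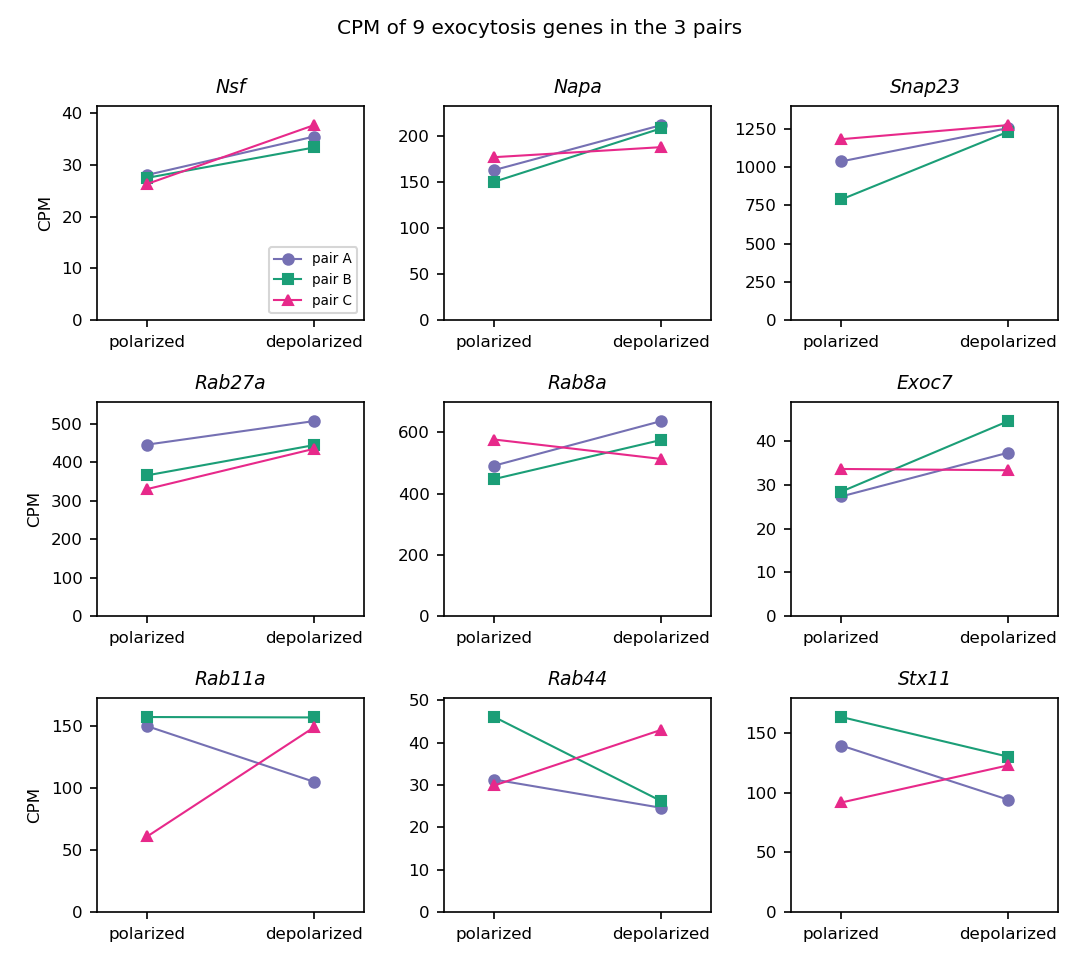
CPM of 9 members in the polarized and depolarized library of each pair, with a line joining the libraries of a pair and axes from 0. Nsf, Napa and Snap23 show no overlap between groups, Rab27a is higher in depolarized cells in every pair, and in the 5 panels from Rab8a to Stx11 pair C runs apart from pairs A and B.

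The Munc18 and Munc13 genes had fitted differences near 0. Unc13d had 51.7, 56.0 and 39.6 CPM in polarized and 43.9, 63.4 and 47.5 CPM in depolarized libraries, in order of pair, with overlap, and a fitted log2 difference of 0.0008 (95% interval -0.38 to 0.38). Stxbp2 had 282, 277 and 351 CPM in polarized and 309, 317 and 296 CPM in depolarized libraries, where both the lowest and the highest value were polarized. It differed by -0.04 (SE 0.19). Stxbp3 was among the steadiest members at 34.9 to 40.5 CPM over all 6 libraries and a difference of -0.02 (SE 0.18). The pseudogene Stxbp3-ps, with 25 counts beside 4244, matches 31.3% of a Stxbp3 transcript at 98.9% identity. The signs of Stxbp2 and Stxbp3 turned with library totals only, and that of Unc13d with a stricter filter.

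Of the Rab GTPases tied to secretory granules, Rab27a (chr9:73044854-73097629, plus strand) had 447, 367 and 331 CPM in polarized and 508, 445 and 436 CPM in depolarized cells of pairs A, B and C. The depolarized library was the higher in each pair, although the groups overlapped because the levels of pair A were the highest in both. The fitted log2 difference was 0.22 (SE 0.17, 95% interval -0.15 to 0.59). Rab3d had 382, 429 and 346 CPM beside 366, 382 and 283 CPM. By CPM its depolarized library was the lower in each pair, with groups that overlapped, while with TMM scaling the sign was not the same in all pairs. Its fitted difference was -0.24 (SE 0.18). Rab37 differed by -0.24 (SE 0.23).

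Rab44, a large Rab with additional domains found in immune cells, had 31.3, 46.1 and 29.9 CPM in polarized and 24.6, 26.2 and 43.1 CPM in depolarized cells of pairs A, B and C. The groups overlapped, with pair C opposite to the others. Its difference was -0.28 (SE 0.22). Of the Rabs of transport to the surface, Rab8a had 492, 448 and 577 CPM beside 637, 575 and 513 CPM, with a difference of 0.12 (SE 0.20). Rab10 had one of -0.10 (SE 0.18).

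Rab11a, of recycling endosomes, had 150, 157 and 61.0 CPM in polarized and 105, 157 and 149 CPM in depolarized libraries of pairs A, B and C. The polarized library of pair C was far below the other 5. The TMM-scaled log2 differences were -0.45, -0.04 and 1.06, and the fitted one was 0.18 (SE 0.24). In that library the share of Rab11a among the Rab11 genes was 53.3%, the lowest of the 6, while the highest was 75.4%. Of the endosomal Rabs, Rab5c differed by -0.13 (SE 0.21), and Rab7, of late endosomes, by -0.06 (SE 0.18) at 259 to 280 CPM. The sign for Rab7 turned with library totals only. A near-identical stretch (98.4%) of another annotated gene, not analysed here, matches 28.8% of a Rab7 transcript, so reads could have been shared with it.

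The Slp genes were expressed at low levels. Sytl1 (Slp1), a Rab27 effector, had 3.83, 4.99 and 3.82 CPM in polarized and 1.72, 5.58 and 3.31 CPM in depolarized cells of pairs A, B and C. The depolarized libraries held the lowest and the highest value. The difference was -0.44 (SE 0.32, 95% interval -1.13 to 0.24). Sytl3 (Slp3) differed by -0.35 (SE 0.50), with 0.90, -0.21 and -1.80 within pairs A, B and C. Up to 28.8% of a Sytl3 transcript is at least 95% identical to annotated genes that were not analysed here, so reads could have been shared with them.

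The exocyst members had fitted differences of both signs. Exoc7 (Exo70), which binds the plasma membrane, had 27.4, 28.5 and 33.7 CPM in polarized and 37.4, 44.6 and 33.4 CPM in depolarized cells of pairs A, B and C. The depolarized value was clearly higher in pairs A and B, and in pair C the CPM of the libraries were close, so the groups overlapped. The fitted log2 difference was 0.30 (SE 0.21, 95% interval -0.14 to 0.73). Exoc1 (Sec3) differed by -0.07 (SE 0.21), Exoc2 (Sec5) by -0.08 (SE 0.18), Exoc3 (Sec6) by -0.18 (SE 0.18) and Exoc4 (Sec8) by -0.15 (SE 0.31). Exoc4 was the lowest of the 5, at 0.32 RPKM.

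On the TMM scale the 3 pairs did not show the same differences. Nsf and Rab27a were the only members with the same sign in all 3 pairs on the TMM scale, 6.06% of the 33, beside 25.0% of all tested genes. Pairs A and B had the same sign and pair C the opposite one for 17 members (51.5%), beside 38.5% of all tested genes and 53.8% of the second machinery list. Depolarized values were higher for 20 members in pair A, for 20 in pair B and for 10 in pair C. Among the 9971 tested genes the counts were 4900, 4958 and 5040. The median within-pair log2 difference of the members was 0.06 in A, 0.06 in B and -0.16 in C. Over all tested genes it was -0.014, -0.004 and 0.011. All these signs and medians are on the TMM scale, and in pair C they depend on it. The factors there were 0.876 in the polarized and 1.03 in the depolarized library, which lowers every difference of pair C relative to plain CPM. The signs on plain CPM were not counted over the members or over all tested genes. By the CPM given above, Snap23, Napa and Stx4a were also higher in depolarized cells of all 3 pairs, and Rab3d was lower.

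Without pair C, 6 of the 33 members were called by edgeR's quasi-likelihood test, beside 10.1% of all tested genes in that fit (1018 of 10102). Higher in depolarized cells were Snap23 (log2 difference 0.47, SE 0.10, adjusted p = 0.000234), Exoc7 (0.56, SE 0.14, adjusted p = 0.00217), Napa (0.44, SE 0.11, adjusted p = 0.00301) and Rab8a (0.38, SE 0.10, adjusted p = 0.00672). Lower were Rab44 (-0.57, SE 0.15, adjusted p = 0.00264) and Stx11 (-0.44, SE 0.12, adjusted p = 0.0042). Nsf was not among them (adjusted p = 0.156 by the same test), and 13 members had an unadjusted p under 0.05, beside 21.9% of all tested genes. Without pair A, 0 members were called (0.986% of all tested genes) and 0 had an unadjusted p under 0.05 (6.43% of all). Without pair B, both counts were 0 as well, beside 0.448% and 2.96% of all tested genes. With 2 pairs the fit has 1 residual degree of freedom. The p-values of these fits therefore rest almost wholly on spread shared across genes, and hardly on a gene's own spread between pairs. The polarized library of pair C also had the highest sum of early neutrophil markers, 345 CPM, and its part in the member values was not tested.

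The second list held 97 further genes of the same machinery, of which 65 could be tested. None was called in either direction by edgeR's quasi-likelihood test (0 of 65), and 2 had an unadjusted p under 0.05, beside the 6.58% of all tested genes. DESeq2 also called 0 and gave 3 at an unadjusted p under 0.05. Without pair C, 6 were called higher and 8 lower, beside 10.1% of all tested genes. The median log2 difference was -0.02. By role, values above 0 were found for 6 of 18 SNAREs and Sec1/Munc18 genes, 10 of 19 Rab GTPases, 6 of 15 Rab regulators and effectors, 2 of 3 calcium sensors and priming factors and 4 of 10 tethering and disassembly genes.

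Syt11, a synaptotagmin that does not bind calcium, had the lowest p of the list. It had 5.17, 12.7 and 7.49 CPM in polarized and 10.2, 18.7 and 20.05 CPM in depolarized cells of pairs A, B and C, higher in each pair with groups that overlapped. The log2 difference was 0.91 (SE 0.23, adjusted p = 0.161 by edgeR's quasi-likelihood test), and it was called by that test without a filter on low counts (0.92, adjusted p = 0.0298) and without pair C (0.75, adjusted p = 0.00571). The p-values without a filter, like those without pair C, rest almost wholly on spread shared across genes. Vps33a, a Sec1/Munc18 protein of lysosomal fusion, had 10.5, 13.3 and 10.2 CPM beside 16.4, 19.0 and 18.4 CPM, and its groups did not overlap. Its difference was 0.60 (SE 0.21, adjusted p = 0.442 by the same test), and without pair C it was called (0.59, adjusted p = 0.0231). Of the 65 tested genes of the list, 7 had groups apart in CPM on the higher and 2 on the lower side. The shares over all tested genes were 7.28% and 3.14%.

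Next by p came Exoc6b (-0.70, SE 0.33), Rab8b (0.37, SE 0.17), Napb (1.28, SE 0.66, from 64 counts) and Rab6a (-0.33, SE 0.18). The paralog pair Rab8a and Rab8b had values of 0.12 and 0.37, and the difference between these was not tested. Exons of Rab6a overlap those of Mrpl48 on the opposite strand over 19.0% of their length, and the sources do not say whether the counting used strand.

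The other 32 genes of the second list were too low to test, with at most 49 counts in the 6 libraries together (Rab13). In 24 of them the total was 3 counts or fewer, a level equal to 0.0267 CPM or less over all libraries, and 10 had no count. Those 24 include the neuronal syntaxin Stx1a, Snap25, the calcium sensors Syt1, Syt2 and Syt7, the Doc2 genes, complexin Cplx1, Unc13b and Unc13c. They also include Rab27b and the Rab27 effectors Sytl2, Sytl4, Sytl5, Exph5, Myrip and Mlph. At this depth no difference between groups was detectable for these 24 genes. Among those without a count were also Rab4a, Chml and Tbc1d10c. Whether a total of 0 reflects a lack of transcript or the way reads were assigned to genes was not tested.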

How the data were processed

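RNA-seq of 6 libraries, 3 of depolarized and 3 of polarized cells by their response label, was analysed. Per the submitters' processing notes, bcl2fastq, STAR 2.0.4b, Subread and featureCounts 1.45 were used with build GRCm38. The strand setting, the annotation release and how multiply matching reads were treated: not given in the sources used here. Raw counts, whole numbers, were deposited for each gene. The deposited CPM equal those counts divided by the library total, and the deposited RPKM equal the CPM per kilobase of the listed gene length. CPM and RPKM describe levels, RPKM alone where genes are compared. Symbols were found for 40254 of 41388 genes, and the other 1134 held 0.131% of counts.

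Counts were tested with edgeR 4.0.16 in R 4.3.3: filterByExpr by group (9971 genes), TMM scaling, and the quasi-likelihood F test with the pair as a block, which leaves 2 residual degrees of freedom. A gene was called where its Benjamini-Hochberg adjusted p, over all tested genes, was under 0.05. The standard error is the log2 difference over the root of F. The test shares spread across genes, so p-values, standard errors and intervals do not rest on the 2 residual degrees of freedom alone. Within-pair differences use TMM-scaled counts with a prior count of 0.5. The detection floor is 3 counts (0.0536 CPM over polarized, 0.0531 CPM over depolarized libraries) and, like the intervals, takes no account of PCR copies. The scripts were tested on simulated data.

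Pairing rests on the design text. Deviations from the group means correlated across genes between libraries of a code with r = 0.08 (A), 0.27 (B) and 0.03 (C). For C the highest correlation with a library of another code, 0.135, was above its own. Members and lists were chosen with earlier results of these data known. All 33 members are named whatever their values. From the second list the rule names every called gene or else the 6 with the lowest p, and from each family the leading gene and the next, and genes at or under the floor were named after their values were seen. Near-identical copies were sought with blastn 2.17.0 in GENCODE transcripts. Alternatives were no block, DESeq2 1.42.0, RLE scaling, library totals only, no filter, a stricter filter (mean CPM of at least 5), a robust fit and leaving out each pair.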

Additional observations from a re-analysis of the deposited data

How the results depend on the processing

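Members called stayed at 0 in both directions without the replicate block, with DESeq2, RLE scaling, library totals only, no filter, the stricter filter and the robust fit, and ran from 0 to 4 higher and from 0 to 2 lower when a pair was left out. Without the block 0 genes of all tested were called higher and 0 lower (8 and 24 with the block), with 511 at an unadjusted p under 0.05. DESeq2 called 16 higher, library totals only 0 higher and 6 lower, no filter 50 higher and 96 lower, the stricter filter 7 lower, and leaving out a pair 9 to 500 higher and 36 to 518 lower. The second list had 1 higher call with no filter, and 0 to 6 higher and 0 to 8 lower with a pair left out. The cause was not tested.

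With library totals only, log2 differences turned for Vamp4 (0.051), Stx12 (0.0048), Snap29 (0.054), Stxbp2 (0.028), Stxbp3 (0.049) and Rab7 (0.011). That setting moved the median over all tested genes too, from -0.002 to 0.065. With the stricter filter the sign turned for Unc13d (-0.0039), while Stx3, Sytl1, Sytl3 and Exoc4 had no value there. Leaving out a pair turned the sign of 6 members (without A), 4 (without B) and 14 (without C). Those values ran from -0.22 to 0.31 (Vamp2), -0.084 to 0.22 (Vamp3), -0.098 to 0.047 (Vamp4), -0.13 to 0.16 (Vamp8), -0.42 to 0.055 (Stx6), -0.23 to 0.017 (Stx7), -0.21 to 0.088 (Stx12), -0.087 to 0.060 (Snap29), -0.16 to 0.17 (Stxbp2), -0.096 to 0.024 (Stxbp3), -0.069 to 0.091 (Unc13d), -0.39 to 0.0090 (Rab5c), -0.11 to 0.063 (Rab7), -0.034 to 0.38 (Rab8a), -0.24 to 0.0056 (Rab10), -0.25 to 0.51 (Rab11a), -0.55 to 0.072 (Rab37), -0.57 to 0.0092 (Rab44), -0.99 to 0.35 (Sytl3), -0.26 to 0.19 (Exoc1) and -0.37 to 0.15 (Exoc4).

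By CPM, not divided by length, the genes that lead by RPKM had shares of 62.9% (VAMP), 23.3% (syntaxin), 97.7% (SNAP-25 type), 88.9% (Munc18), 98.1% (Munc13), 76.9% (Rab5), 52.9% (Rab11), 87.6% (Napa) and 18.4% (exocyst). By counts the leader was another gene in 2 of these, Stx5a (14934 counts, Stx11 13790) and Exoc3 (5995, Exoc6 5428).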
